A study of Mus musculus with 9 samples.

Results

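The hearts described are those of unedited mice: 3 of the 9 RNA-seq libraries of a series on an Rbm20 frameshift allele, chosen by their titles as the wild-type hearts at 12 weeks of age. They are named here library 1, 2 and 3 by the number in their titles. The other libraries, from mice heterozygous or homozygous for the edited allele, were not compared with them. Total RNA of the heart was sequenced in read pairs of 150 bases from a kit that keeps the strand. The labels name no strain, sex, treatment or chamber, and do not say that each library came from its own mouse, so the spread given is that between libraries.

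Heart muscle contracts when calcium lets the myosin of the thick filament pull on the actin of the thin filament, and most of its ATP comes from mitochondria that burn fatty acids. Its proteins come in tissue-specific forms because exons are included or skipped in a cell-type-dependent way, under regulators such as RBM20, RBFOX, MBNL and CELF proteins. RBM20, intact in these mice, is known for repressing exons of titin, CaM kinase II delta, LDB3 and other heart proteins.

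The data are counts per exonic part, a piece of an exon bounded by annotated exon edges. Percent spliced in (PSI) is the share of transcripts that include the part, on a scale from 0 to 1, from reads in the part (inclusion) and junction reads that skip it (exclusion). Summed over parts, inclusion counts came to 302, 300.4 and 297 M in libraries 1, 2 and 3. Exclusion counts came to 53.9, 56.6 and 56.1 M, so depth was nearly even. A read appears to be counted in each part it touches, so these sums are not numbers of reads. Inclusion and exclusion reads named below are these counts. Of 480017 parts, 270587 under 20743 gene identifiers had a PSI and at least 10 reads in each library, and all PSI statements are about these. A level is inclusion reads per kilobase of a gene's parts, scaled to 1000000 inclusion reads in the library. Short parts thereby hold more counts per base, which raises the level of genes cut into many short parts. All annotated parts enter the length, also those rarely used, which lowers it. Ranks between genes carry both limits.

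The tissue label was checked against markers. All 11 ventricular cardiomyocyte markers reached a level of 1 in at least 1 library, with a summed level of 18517 to 20821. So did 8 of the 10 atrial markers, which summed to 139 to 205, and all 10 fibroblast markers, which summed to 577 to 694. The same held for all 10 endothelium markers and all 10 of smooth muscle and pericytes. It also held for 9 of 10 macrophage and 6 of 12 skeletal muscle markers. Chambers are not told apart by these sums. None of the 8 lymphocyte markers reached a level of 1 in any library. The 3 libraries were not alike in every list: the summed level of 7 erythroid markers was 12232, 6229 and 4714, that of 10 macrophage markers 199.7, 143.8 and 109.5, and that of the atrial markers 205, 139 and 139 in libraries 1, 2 and 3, so that library 1 was highest in all of these lists. Of 4 adipocyte markers with at least 100 reads on average, 3 had a CV (SD over mean) of at least 0.5 and were highest in library 1, while the summed level of that list, mostly Plin4, was 35.7, 29.1 and 37.7. In whole tissue, more cells of a type and more RNA per cell cannot be told apart. Their part in the results below was not tested.

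The most abundant transcripts were mitochondrial. The joined identifier mt-Co3+mt-Atp8+mt-Atp6 reached a level of 27179 ± 2070 (SD, n = 3) and mt-Co1, a subunit of cytochrome c oxidase, 27096 ± 635. Genes of the mitochondrial genome took 17.1%, 19% and 18.4% of inclusion reads in libraries 1, 2 and 3, not counting the pseudogene identifiers named next. The first 20 identifiers also held 5 pseudogene identifiers on chromosome 1, with Gm10925 at 26246 ± 1945, Gm28437 at 20800 ± 2044, Gm28661 at 20563 ± 846, Gm29216 at 18989 ± 784 and Gm28439+Gm10222 at 15446 ± 1736. These pseudogenes are near-identical copies of mitochondrial genes, so their reads cannot be told apart from mitochondrial ones. The mitochondrial transfer RNA identifiers mt-Ts1 (24901 ± 851), mt-Te (14574 ± 582) and mt-Tl1 (4634 ± 274) are of 69 to 75 bases, shorter than a read. The remaining mitochondrial places were held by mt-Co2, mt-Nd4l+mt-Nd4, mt-Cytb, mt-Nd6, mt-Ti+mt-Nd1, mt-Tw+mt-Nd2 and mt-Nd5, from 20310 down to 5027.

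Among nuclear protein-coding genes, myoglobin (Mb), which stores oxygen in muscle, stood first at levels of 7787, 7816 and 7101. Library 3 was the lowest and the values lay close together. The ventricular myosin light chain gene Myl2 followed at 5944, 4978 and 4980, with library 1 above a nearly equal pair. Myh6, the alpha myosin heavy chain of the adult mouse heart, was at 4154, 3455 and 4209. Its mean of 3939 ± 420 was below that of Myl2 (5301 ± 558), and every library was higher in Myl2 than any was in Myh6. The other sarcomere genes in the first 20 were Myl3, the essential light chain (3035 ± 82.6), Actc1, cardiac actin (2945 ± 106), Tnnt2 and Tnnc1, which encode troponin T and C (1980 ± 282 and 1783 ± 89.7), Tpm1, tropomyosin (1526 ± 135), and troponin I under the joined identifier Dnaaf3+Tnni3 (1187 ± 98.6). The joined identifier includes the parts of Dnaaf3 in its length, and Tnnt2 is scaled over 7728 bases against 1041 of Tnnc1. The 3 troponins are therefore not ranked by these levels.

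Fuel and energy genes came next. Fabp3, the fatty acid carrier of heart muscle, was at 3492, 2780 and 2757, higher in library 1 than in the close pair of libraries 2 and 3. Gapdh of glycolysis (1438 ± 206), the ATP/ADP carrier Slc25a4 (1245 ± 22.0), the ATP synthase subunits Atp5a1 (1162 ± 31.3) and Atp5b (1121 ± 35.3), and the cytochrome c oxidase subunit Cox4i1 (1137 ± 43.2) also ranked in the first 20. The ranges of Atp5a1, Atp5b and Cox4i1 overlap, so the 3 are not separated by these libraries. Atp2a2, the calcium pump of the sarcoplasmic reticulum, was at 1704, 1579 and 1948, and its inhibitor phospholamban (Pln) ranked just after the first 20 at 1021 ± 22.5. The globin genes Hbb-bs (4465, 1855 and 1534), Hba-a2 (2929, 1951 and 1332), Hba-a1 (2645, 1510 and 1177) and Hbb-bt (2170, 904 and 663) were each highest in library 1 and lowest in library 3. These 4 genes are members of the erythroid marker list and make up nearly all of its summed level. Hba-a1 and Hba-a2, and Hbb-bs and Hbb-bt, are close copies whose reads may be shared between the members of each pair. The identifier Gm49540, annotated as antisense to Mb, was listed at 3602 ± 257, and Gm28438, another chromosome 1 pseudogene, at 1754 ± 228. Of 149 identifiers that lie inside an abundant gene of the opposite strand, 69.8% had a read density within 2-fold of that gene. Gm49540 overlaps Mb at an end only and does not lie inside it, so this share does not cover it. Its reads in the overlap were not told apart from those of Mb.

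**Figure D1:**
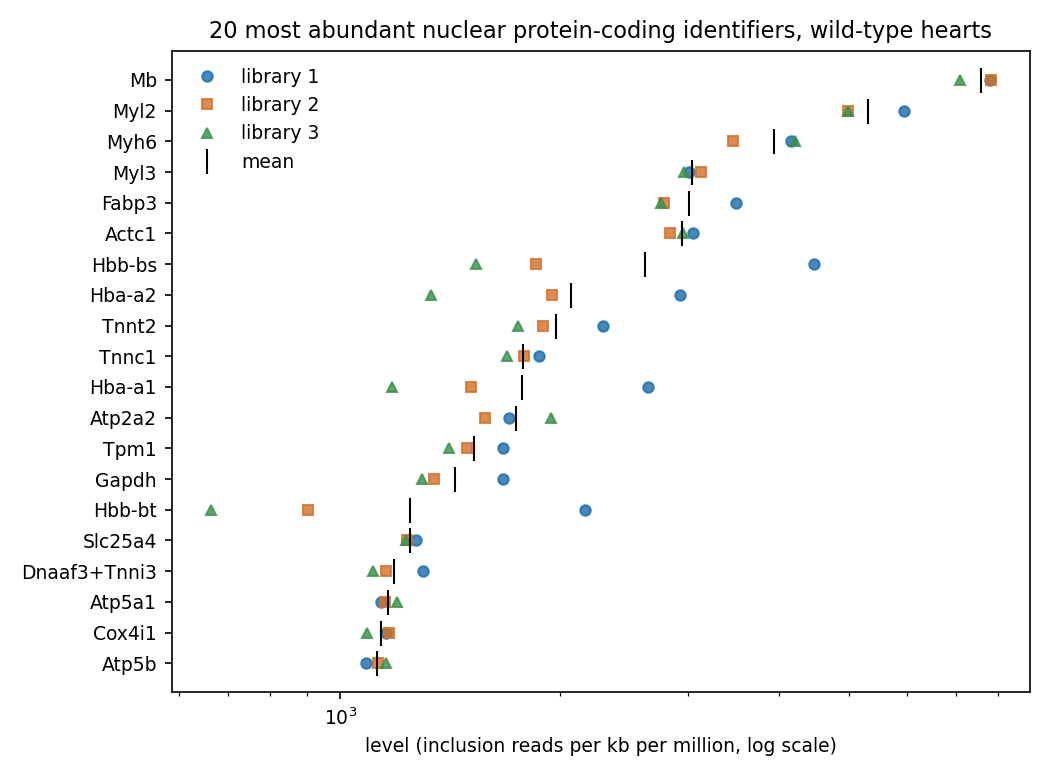
Level of the 20 most abundant nuclear protein-coding identifiers (inclusion reads per kb, scaled to library depth, log scale) in each of the 3 wild-type libraries, with the mean as a black vertical tick. Mb leads at 7568, and the 4 globin genes are the widest spread, with library 1 highest.

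Lower down the scale, the fetal-type heavy chain Myh7 was at 153, 159 and 193, the natriuretic peptide Nppa at 103, 108 and 102, skeletal actin Acta1 at 109, 141 and 160, and Rbm20 itself at 15.9, 15.9 and 19.9. The ranges of Myh7 and Acta1 overlap, those of Acta1 and Nppa lie next to each other, and Rbm20 stands clear below. Myh7 has exons near-identical to those of Myh6, and how many of its reads came from Myh6 was not tested. Its coverage was uneven: in library 1 part 1 (83 bases) held 713 inclusion reads and part 6 (242 bases) 62646. Summed over lists, the 37 genes of the citric acid cycle and energy transfer, Mb among them, reached 16670 to 17258, the 43 nuclear-encoded respiratory chain genes 15045 to 15611, the 10 thick filament genes 12548 to 14186, the 13 thin filament genes 9381 to 10672 and the 31 fatty acid genes 7194 to 8035. The 43 ion channel genes together came to 843 to 937, less than Pln alone. Among channels, Kcnip2, a subunit of the transient outward potassium channel, had a level of 40.4 ± 4.63, and Cacna1c, the L-type calcium channel, 8.91 ± 1.96.

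Most parts were either always in or nearly always out. Of the 270587 parts, 200573 (74.1%) had a mean PSI above 0.9 and 58.1% had a PSI of 1 in every library. Another 47596 (17.6%) were below 0.1. Intermediate parts, from 0.1 to 0.9, numbered 22418, or 8.28%, and the share was 8.13%, 8.25% and 8.21% in libraries 1, 2 and 3 taken singly, a difference of little more than 0.1 percentage points. These parts lay in 7125 identifiers, 34.3% of those with a measured part. Where at least 1 skipping read was seen, 19.8% of parts were intermediate. The median intermediate part had 122 reads per library.

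The share differed with structure. Parts that touch no other part of their gene, which are mostly whole exons, were intermediate in 5.16% of cases, and parts that adjoin another, as at alternative splice sites, retained introns and alternative ends, in 10%. Among the whole-exon parts, short ones were intermediate most often: 20 of 106 parts of 1 to 9 bases (18.9%) and 130 of 750 parts of 10 to 27 bases (17.3%), against 8.42% of those of 28 to 60 bases and 4.76% of those of 61 to 120 bases. A length that is a multiple of 3, which keeps the reading frame, was found in 49.2% of the 4997 intermediate whole-exon parts, in 39.3% of included ones and in 35.7% of skipped ones. Coding and untranslated parts were not separated in these counts.

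**Figure D2:**
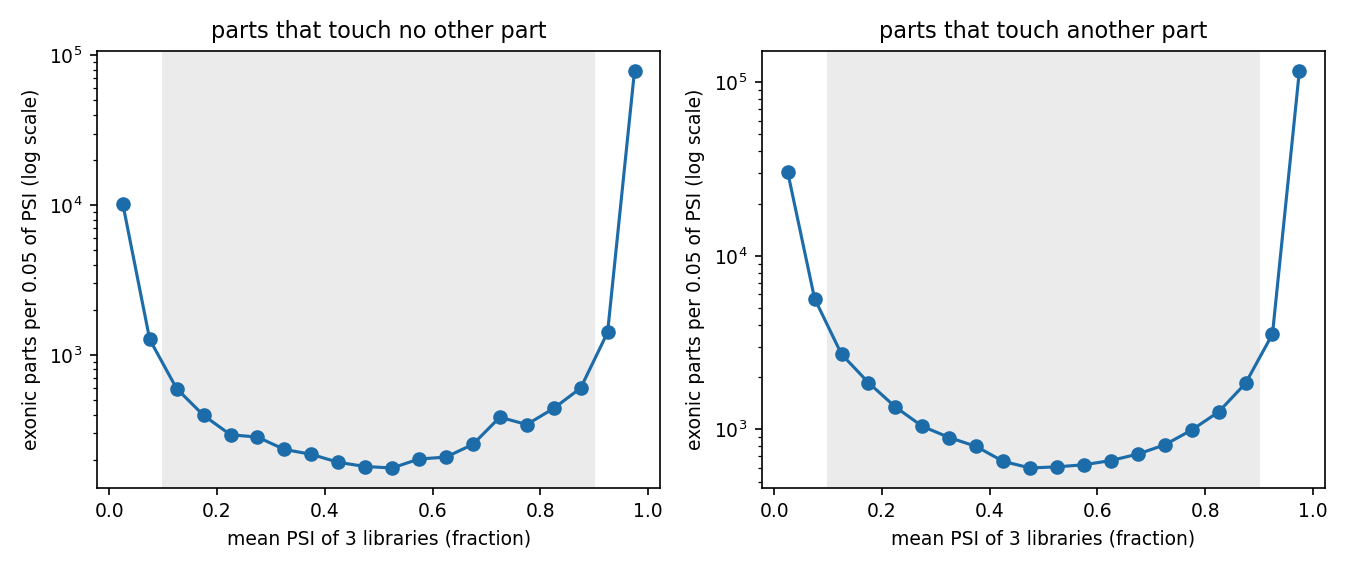
Number of exonic parts per 0.05 of mean PSI (log scale), for parts that touch no other part of their gene (left) and parts that adjoin another (right); the shaded span is the intermediate range. Both curves are highest at the ends, and 5.16% of the left and 10% of the right parts lie in the shaded span.

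The share differed between functional lists. Intermediate parts made up 2.43% of 701 parts in the nuclear-encoded respiratory chain, 2.59% of 811 in the citric acid cycle and energy transfer, 3.04% of 888 in glycolysis and glycogen and 5.59% of 752 in fatty acid use, all below the 8.28% of all parts. Calcium handling (5.89% of 849) and ion channels (6.63% of 1176) were also below it, and the thin filament (28 parts, 8.43%) was near it. Splicing regulators of muscle stood at 17.9% of 901 parts, and all 29 of their measured genes had such a part, beside 34.3% of all identifiers. A gene with more measured parts has more chances of such a part, and the gene count was not matched for this. The thick filament (19.3% of 296) and the list of titin, M-band and Z-disc genes (22.9% of 1490) were higher still, but each rests on single genes: without Myh6 and Myh7 the thick filament had 3.30% of 182 parts, and without Ttn the other list had 10.7% of 1098 parts. These are descriptions of lists with different numbers of parts and depths.

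Titin (Ttn), the giant spring of the sarcomere, held 392 of the measured parts and 224 of the intermediate ones. In library 2, 384 of its parts shared 339 exclusion reads, while libraries 1 and 3 shared 0. The median PSI of these parts was 0.981, 0.143 and 0.943 in libraries 1, 2 and 3 as deposited, and 0.981, 0.909 and 0.943 with the shared reads subtracted. Library 2 thus stood apart through these reads, and the number of intermediate parts was 63 without them. The deepest intermediate parts by the naming rule show it: Ttn part 44, of 17106 bases, was at 1, 0.377 and 0.993, and part 31 at 0.998, 0.674 and 0.998.

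With those reads subtracted the gene showed a block pattern in every library, read here in the direction of the part numbers, from the end of the gene to its start. The runs were drawn after the values were seen. Coordinates here and below are those of the deposited table, on GRCm39. A run of 145 parts and 65730 bases at chr2:76539109-76649160 had a median PSI of 1, 1 and 0.973. The next 103 parts, small pieces of 7994 bases in all, were mostly skipped, with 11 of them intermediate and medians of 0.0656, 0.0408 and 0.0263. After them, 30 parts over 5712 bases at chr2:76692694-76712183 were included in part, with medians of 0.616, 0.707 and 0.488 and all 30 means between 0.472 and 0.757. A further 43 parts, 14 of them intermediate, had medians of 0.0797, 0.0674 and 0.0562, and a last run of 37 parts had a median of 1 in each library. The skipped runs lie in the middle of the gene, where the elastic I-band region of the protein is encoded. All 3 libraries kept the same order of runs.

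**Figure D3:**
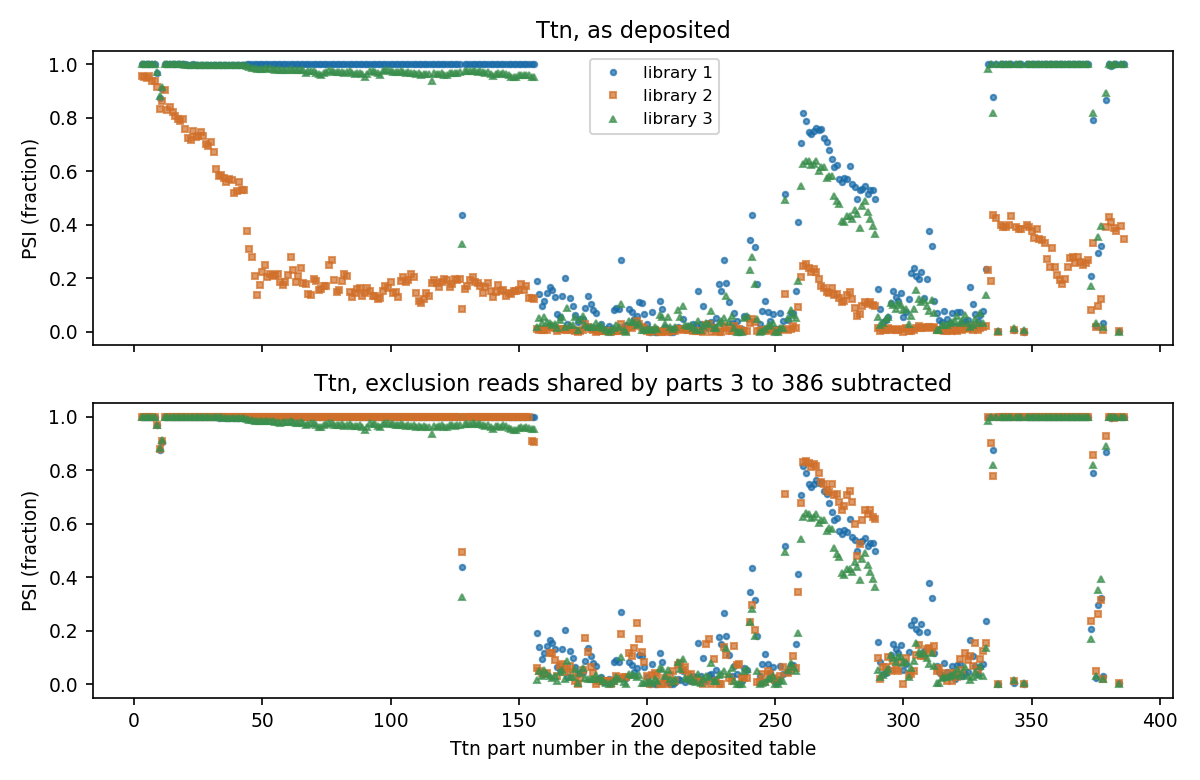
PSI of the Ttn parts in order of part number, in each wild-type library, as deposited (top) and with the exclusion reads common to 384 parts subtracted (bottom). Library 2 falls to a median of 0.143 in the top panel and to 0.909 in the bottom one, where the blocks of the 3 libraries begin and end together and library 3 is lowest in the partly included run.

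Myh6 held 37 intermediate parts of 55 and Myh7, its neighbour on chromosome 14, 14 of 59. Toward the Myh7 side PSI was lower at the parts inspected, going from 0.953, 0.895 and 0.862 at part 8 through 0.478, 0.310 and 0.380 at part 29 to 0.00149, 0.000844 and 0.00119 at part 55. The last part of Myh6 was skipped by 106181, 170389 and 201457 reads, and the first part of Myh7, across the gap between the genes, by 106181, 170388 and 201457. The counts on both sides of the gap are the same but for a single read. These genes have near-identical exons, and the origin of the reads was not tested, so the PSI of either gene is not read here as exon choice. By the naming rule, Myh6 part 13 (309 bases) was at 0.917, 0.759 and 0.810 and Myh7 part 6 (242 bases) at 0.206, 0.106 and 0.0955.

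Among the chosen contractile genes other than Ttn, 10 of 32 intermediate parts (31.25%) had a PSI range of at least 0.1 between libraries. The share over all intermediate parts was 54.8%. It was 91.5% with 10 to 19 reads in the shallowest library and 27.6% with 1000 or more. The 32 parts were not matched to others for depth. Tpm1 has pairs of exons of equal length of which a transcript carries a single member. At chr9:66955068-66955193 part 35, of 126 bases, was included at 0.997, 0.970 and 0.997, and its neighbour part 36 at chr9:66955406-66955531 at 0.00676, 0.00782 and 0.00778. Parts 19 and 21, of 76 bases, were at 0.978 ± 0.0144 and 0.0103 ± 0.000402. Striated muscle is known for using the member of each pair that was included here. The coding parts 35 and 36, on the minus strand, differ at 66 of 126 bases. Here and for the pairs below, each exon is printed 5′ to 3′ from the GENCODE M21 transcript it matched, with the bases that differ from its partner in capitals.
Tpm1 part 35: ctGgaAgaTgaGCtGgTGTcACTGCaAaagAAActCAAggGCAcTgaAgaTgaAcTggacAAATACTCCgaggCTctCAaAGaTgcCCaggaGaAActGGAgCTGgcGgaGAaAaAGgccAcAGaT
Tpm1 part 36: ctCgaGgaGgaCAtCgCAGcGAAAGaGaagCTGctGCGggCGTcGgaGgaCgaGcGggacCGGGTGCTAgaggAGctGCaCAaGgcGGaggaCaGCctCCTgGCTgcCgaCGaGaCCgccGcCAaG

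Several heart exons stood at one extreme. The 105-base part 38 of Nrap, an actin-anchoring protein whose skeletal form carries this exon, had a PSI of 0.00186, 0.00160 and 0.000897. Myom1 part 29, 294 bases in the stretch of the EH exon of embryonic heart myomesin, was at 0.0859, 0.0857 and 0.0972. Both were low in every library. In Vcl, which encodes vinculin, the 135-base part 20 had a PSI of 0.0632 ± 0.0105. By the rule for genes with no intermediate part, Myom1 part 33 (0.00195), Vcl part 9 (0.00247) and Fhod3 part 5 (0.000555), a formin of the sarcomere, were the least included.

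Others were mixed. Itgb1 part 20, the 81-base exon of the muscle form of integrin beta 1, was at 0.507, 0.515 and 0.564. About equal numbers of transcripts with and without this exon were thus seen, in a tissue of muscle and other cells. Pdlim5 part 26, a 15-base coding exon of a PDZ-LIM protein of the Z-disc, was at 0.797, 0.804 and 0.810. The Z-disc scaffold gene Ldb3 had part 11 at 0.717 ± 0.00844 and part 13, which is part coding, at 0.813 ± 0.0396, while its part 18 was at 0.0609 ± 0.00440 and part 21 at 0.975 ± 0.00233. The 3 deepest intermediate parts of Tnnt2 were short, of 9 bases at 0.678, 0.694 and 0.836, of 12 bases at 0.175 ± 0.0110 and of 11 bases at 0.811 ± 0.0442. Library 3 was above the other libraries at the 9-base part. Further list members were Mylk3, a myosin light chain kinase (part 18, 0.871 ± 0.0209), Tpm3 (part 23, 0.821 ± 0.0196), Nebl, nebulette of the Z-disc (part 36 of 105 bases, 0.579 ± 0.0230), Nexn+Gm43185 (part 25, 0.866 ± 0.00369), Myh7b (part 42, 0.270 ± 0.0110), Myl2 (part 30 of 6 bases, 0.537 ± 0.0121), and Dnaaf3+Tnni3 (part 22), where library 3 was lower, at 0.379, 0.372 and 0.177. The Pdlim5 exon, at chr3:142012045-142012059 on the minus strand, is shown in capitals between 10 bases of its neighbours on either side, and its length is a multiple of 3.
Pdlim5 part 26: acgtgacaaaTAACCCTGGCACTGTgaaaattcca

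Of 17 calcium and channel genes chosen for known isoforms, 14 had an intermediate part, beside 34.3% of all identifiers, a count that the choice favours. By parts, 66 of 925 were intermediate, beside 8.28% of all parts, and the median SD of PSI over those 66 parts was 0.0252. Cacna1c, the pore of the L-type calcium channel, showed 3 pairs of equal-length exons. Part 31 (84 bases) was at 0.80, 0.847 and 0.774 and its partner 32 at 0.274, 0.264 and 0.318. Part 41 (60 bases) was at 0.625, 0.623 and 0.655 and its partner 42 at 0.290, 0.388 and 0.351. These pairs were mixed in every library, and their values did not overlap within a pair. The third pair was close to a fixed choice, with part 59 (104 bases) at 0.979 ± 0.0112 and part 58 at 0.0623 ± 0.0133. By the naming rule part 28 (376 bases) was also named, at 0.116 ± 0.0119. A single 75-base exon, part 56, was at 0.437, 0.414 and 0.413. The pair members, coding and on the minus strand, lie at chr6:118614691-118614774 (31), chr6:118615388-118615471 (32), chr6:118651307-118651366 (41) and chr6:118651516-118651575 (42), and encode alternative forms of membrane segments in the channel's repeats. Capitals mark the bases that differ within a pair, 35 of 84 and 25 of 60.
Cacna1c part 31: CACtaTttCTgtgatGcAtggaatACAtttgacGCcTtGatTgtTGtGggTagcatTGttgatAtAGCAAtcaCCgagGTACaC
Cacna1c part 32: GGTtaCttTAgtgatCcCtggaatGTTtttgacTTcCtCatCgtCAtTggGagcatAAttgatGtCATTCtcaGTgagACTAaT
Cacna1c part 41: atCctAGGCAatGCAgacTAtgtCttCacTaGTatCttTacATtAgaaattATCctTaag
Cacna1c part 42: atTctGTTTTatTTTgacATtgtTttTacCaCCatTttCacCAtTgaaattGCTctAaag

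Of potassium channel genes, the chosen ones gave these values. Kcnip2 part 16, of 54 bases, was at 0.473, 0.486 and 0.486 and part 21, of 96 bases, at 0.80 ± 0.0270, both coding. Abcc9, the sulphonylurea receptor of the ATP-sensitive channel, had part 4 at 0.585, 0.538 and 0.583, near the end of the gene where its known forms differ. Kcnh2 part 18 was at 0.273 ± 0.0252, and Kcnd3 part 9 at 0.252, 0.473 and 0.390, a wide spread. Kcnq1 had no intermediate part, and its part 6 was the least included at 0.000720. The ankyrin genes, which anchor channels, had Ank2 part 46 (15 bases) at 0.521 ± 0.0151 and part 8 at 0.861 ± 0.0251, and Ank3 part 110 at 0.547 ± 0.0483. Fxyd1, a regulator of the sodium pump, had part 8 at 0.899 ± 0.0120.

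In the calcium release machinery, Trdn, triadin, was mixed, with part 16 at 0.754, 0.769 and 0.781 and part 17 at 0.369, 0.390 and 0.398. Its 48-base coding part 33 was at 0.762 ± 0.0139. Ryr2, the release channel, had no intermediate part, and its part 15 was the least included at 0.000144. Its 24-base part 32, an exon known for rising where RBM20 is lost, was at 0.0254, 0.0248 and 0.0188. Atp2a2 had none either, the lowest being part 20 at 0.000760. Slc8a1, the sodium-calcium exchanger, had part 3 at 0.889 ± 0.00880, Asph part 29 was at 0.646 ± 0.0332, and Atp2b1 part 41 at 0.482 ± 0.0874. The calcium channel subunits Cacna2d1 and Cacnb2 had part 38 (21 bases) at 0.657 ± 0.00841 and part 8 at 0.755 ± 0.141, the second on 106 reads in all. Camk2d, the calcium-responsive kinase with a variable linker of alternative exons, had its 42-base coding part 53 at 0.497, 0.506 and 0.542 and part 66 at 0.725 ± 0.00903. Both were close in the 3 libraries. Part 53, on the plus strand at chr3:126601857-126601898, is shown in capitals between 10 bases of its neighbours.
Camk2d part 53: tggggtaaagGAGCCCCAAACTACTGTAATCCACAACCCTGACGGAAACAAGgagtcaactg

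In the chosen metabolic genes, 21 of 438 parts were intermediate, beside 8.28% of all parts. Pkm, pyruvate kinase of muscle, carries a pair of 167-base exons that give the adult form (M1) or the form of embryonic and dividing cells (M2). The M1 exon, part 33 at chr9:59582312-59582478, was at 0.930, 0.924 and 0.939, and the M2 exon, part 36 at chr9:59582851-59583017, at 0.108, 0.119 and 0.106, under the joined identifier Pkm+Gm49759. The adult form thus led in every library, with a minor M2 share. The members differ at 64 of 167 bases, on the plus strand.
Pkm part 33: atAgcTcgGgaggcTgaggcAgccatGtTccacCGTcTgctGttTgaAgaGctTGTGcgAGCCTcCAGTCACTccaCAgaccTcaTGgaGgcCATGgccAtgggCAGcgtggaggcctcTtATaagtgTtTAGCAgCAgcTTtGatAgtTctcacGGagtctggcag
Pkm part 36: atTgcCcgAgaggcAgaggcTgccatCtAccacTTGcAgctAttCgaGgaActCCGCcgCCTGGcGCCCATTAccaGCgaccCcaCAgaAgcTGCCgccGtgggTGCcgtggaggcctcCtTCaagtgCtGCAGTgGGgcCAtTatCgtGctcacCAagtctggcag

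Slc25a3, the mitochondrial phosphate carrier, has a heart and muscle exon (A) and an exon of other tissues (B). Parts 20 and 21, which make up the A exon of 125 bases at chr10:90958069-90958193, were at 0.964 ± 0.00656 and 0.962 ± 0.00734. Part 17, the B exon of 122 bases at chr10:90957784-90957905, was at 0.0682, 0.0590 and 0.0511. Acsl1, which activates long-chain fatty acids, included part 29 (78 bases, chr8:46974305-46974382) at 0.951, 0.981 and 0.98 and its partner 30 (chr8:46974447-46974524) at 0.0312, 0.0293 and 0.0291. In both genes the values of the pair were far apart in every library. The Slc25a3 exons, on the minus strand, differ at 45 of 122 paired bases with 3 unpaired, and the Acsl1 exons, on the plus strand, at 36 of 78.
Slc25a3 parts 20 and 21: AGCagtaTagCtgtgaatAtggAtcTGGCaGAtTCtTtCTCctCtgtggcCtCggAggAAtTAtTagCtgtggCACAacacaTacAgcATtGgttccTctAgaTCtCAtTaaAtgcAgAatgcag
Slc25a3 part 17: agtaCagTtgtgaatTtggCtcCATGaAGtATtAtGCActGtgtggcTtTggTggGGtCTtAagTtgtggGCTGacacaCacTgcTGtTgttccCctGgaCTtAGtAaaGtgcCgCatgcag
Acsl1 part 29: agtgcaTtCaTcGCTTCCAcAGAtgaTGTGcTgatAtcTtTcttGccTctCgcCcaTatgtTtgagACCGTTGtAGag
Acsl1 part 30: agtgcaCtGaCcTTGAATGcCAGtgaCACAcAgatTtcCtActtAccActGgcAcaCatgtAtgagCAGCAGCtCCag

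In the respiratory chain, a pair of genes had exons that were nearly always skipped. Atp5c1 part 3, a 37-base exon of the ATP synthase gamma subunit known in humans for being left out in muscle, was at 0.0266, 0.0244 and 0.0232. The long exon of Ndufv3, a complex I subunit, was nearly absent, with part 7 at 0.0203 ± 0.00207 and part 8 at 0.0277 ± 0.00451. Intermediate parts of ATP synthase genes were short, such as Atp5g1 part 11 (38 bases, 0.858 ± 0.00661), Atp5g3 part 10 (10 bases, 0.221 ± 0.00397) and Atp5j part 13 (55 bases, 0.117 ± 0.00821). Ndufs1 part 39 (0.385 ± 0.00576) and Gm49356+Rnf139+Ndufb9 part 3 (0.608 ± 0.0331) completed the list. The least included parts of genes with no intermediate part were Slc25a3 part 13 (0.00494), Atp5c1 part 14 (0.00116) and Ndufv3 part 9 (0.000361). Mitochondrial genes have no introns, yet 0.972%, 0.641% and 1.1% of their reads were exclusion reads, and 16 of their 43 parts came out as intermediate, as did mt-Nd3 at 0.680, 0.742 and 0.566. These values are therefore not read as exon choice.

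In other metabolic genes, Acsl1 part 11 was at 0.607 ± 0.00748, Eno3 part 7 at 0.277 ± 0.00328, Aldoa part 27 at 0.861, Eno1 part 10 at 0.672 ± 0.0499 and Phkg1 part 12 at 0.176 ± 0.0558. Ogdh part 5, 76 bases of the oxoglutarate dehydrogenase gene, was at 0.154, 0.145 and 0.146. Fatty acid genes gave Cd36 part 19 (3 bases, 0.811 ± 0.0103), Acot2 part 3 (0.585 ± 0.0732), Hadhb part 6 (0.390 ± 0.00988), Chkb+Gm44502+Cpt1b part 25 (0.131 ± 0.00798) and Eci2 part 27 (0.357 ± 0.0105). Genes of mitochondrial shape were mixed: Opa1, of fusion, had part 11 at 0.548, 0.557 and 0.526, Dnm1l, of fission, part 12 at 0.407, 0.451 and 0.465, and Mff, its receptor, part 22 at 0.410, 0.398 and 0.408. Mitochondrial porins and carriers gave Vdac3 part 12 (0.845 ± 0.0293), and Mpc1 part 11 and Vdac2 part 5, in which library 2 stood apart, at 0.00738, 0.626 and 0.0101 and at 0.99, 0.718 and 0.99. Mpc1 part 11 had 207, 306 and 293 inclusion reads but 10055, 66 and 10412 exclusion reads. Vdac2 part 5 had 826, 814 and 957 inclusion and 8, 296 and 9 exclusion reads. The origin of these exclusion reads was not tested, so the 2 parts are not read as exon choice. The insulin receptor Insr had its 36-base coding part 18, whose skipping gives the A form, at 0.216, 0.158 and 0.219. Phka1 part 6 was at 0.118 ± 0.0343 and Prkag2 part 26 at 0.501, 0.337 and 0.332, with library 1 highest.

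**Figure D4:**
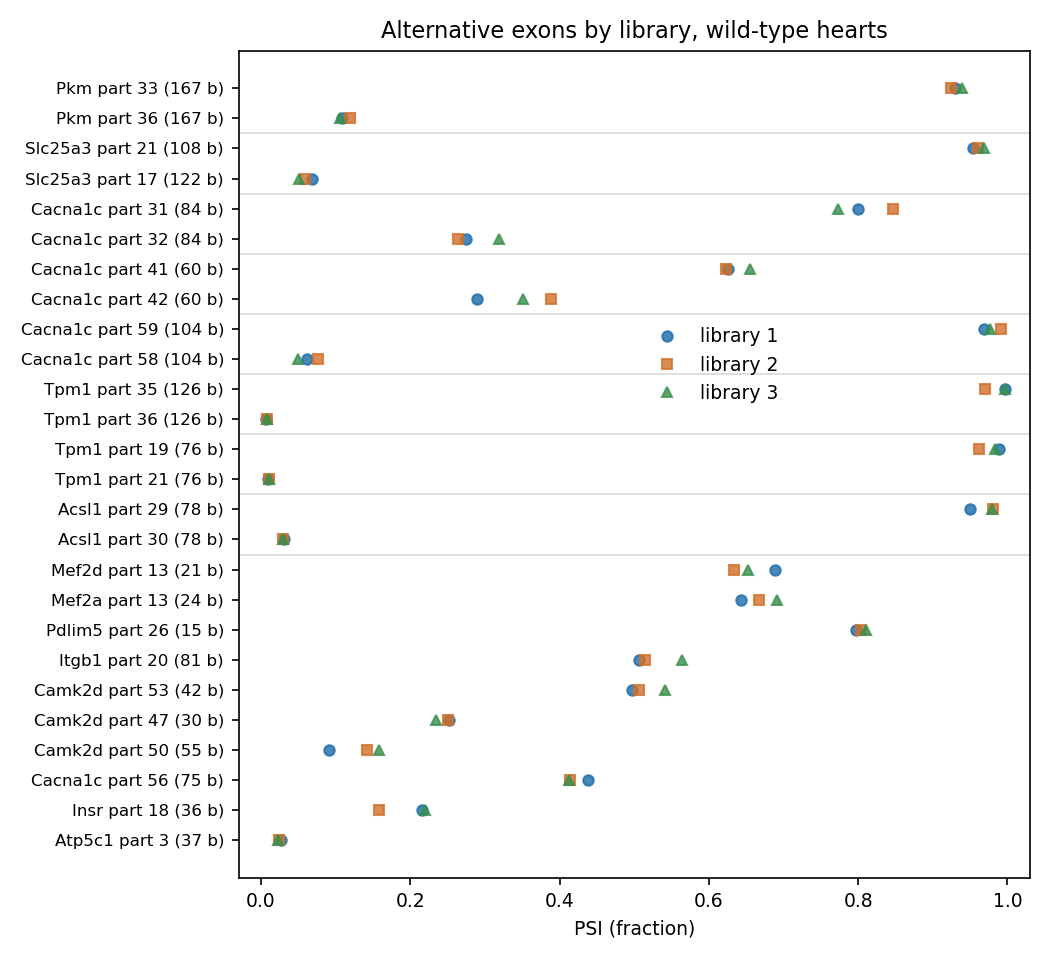
PSI of chosen alternative exons in each wild-type library, with exon pairs between grey lines and single exons below. Members of the pairs of Pkm, Slc25a3, Tpm1 and Acsl1 lie near opposite ends, while parts 31, 32, 41 and 42 of Cacna1c lie between.

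The regulators of transcription and splicing and the matrix gene Fn1 were chosen for known alternative exons, so that 8 of 8 with an intermediate part, beside 34.3% of all identifiers, follows from the choice. The transcription factors Mef2a and Mef2d carry a short acidic exon, the beta exon, known to be used in muscle. It was at 0.644, 0.667 and 0.691 in Mef2a (part 13, 24 bases, chr7:66894269-66894292, minus strand) and at 0.689, 0.633 and 0.652 in Mef2d (part 13, 21 bases, chr3:88069088-88069108, plus strand). The 2 genes overlapped in range and so are not separated. In capitals between 10 bases on either side, both exons have a length that is a multiple of 3.
Mef2a part 13: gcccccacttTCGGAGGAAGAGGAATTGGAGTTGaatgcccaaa
Mef2d part 13: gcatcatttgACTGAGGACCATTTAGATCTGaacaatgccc

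Mef2d parts 8 and 9, a pair of 138 and 135 bases, were at 0.610 ± 0.0144 and 0.456 ± 0.0217, and Mef2a part 22 at 0.432 ± 0.00868. Mef2c parts 33 and 34 were at 0.825 ± 0.00723 and 0.807 ± 0.0236. Mbnl1, itself a splicing regulator, had part 44 at 0.625 ± 0.00790 and the 36-base part 43 at 0.261 ± 0.0318. Rbfox2 parts 15 and 16, of 43 and 40 bases, were at 0.690 ± 0.0285 and 0.286 ± 0.0429. Fxr1, an RNA-binding protein with muscle exons, had parts 28 and 29 at 0.870 ± 0.00449 and 0.882 ± 0.00681. Rbm20 had part 2, in its untranslated region, at 0.235 ± 0.0255. In the splicing regulators the deepest intermediate parts were in Hnrnpa2b1 (part 8, 0.710 ± 0.0147), Qki (part 5, 0.322 ± 0.0356), Hnrnpa1 (part 14, 0.771 ± 0.0334), Srsf5 (part 25, 0.514 ± 0.0162) and Srsf2 (part 7, 0.627 ± 0.0186), parts of 376 to 3170 bases. The matrix gene Fn1 included its 270-base part 30 at 0.210 ± 0.0223.

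Pairs of equal-length neighbouring exons whose mean PSI sum to between 0.9 and 1.1 were looked for in all genes, under limits set after the values were seen. There were 97 such pairs in 77 identifiers, and in 40 pairs both members were intermediate. Among these, Rab6a, a vesicle GTPase, had 106-base parts 6 and 7 at 0.443 ± 0.010 and 0.576 ± 0.0103, Dnm2, a dynamin, 139-base parts 22 and 24 at 0.663 ± 0.020 and 0.309 ± 0.0182, and P4ha1, a collagen hydroxylase, 71-base parts 11 and 12 at 0.446 ± 0.0138 and 0.593 ± 0.0120. The share of the 97 pairs with a length that is a multiple of 3 was 53.6%.

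Agreement between libraries was close for levels. Over 15901 identifiers with at least 100 reads on average, the log2 level correlated across genes with r from 0.988 to 0.994, and genes are not independent replicates. The median coefficient of variation (CV, SD over mean) was 9.30%, and 7.61% over the 11080 identifiers with at least 1000 reads. A CV of at least 0.5 was found in 1.26% of identifiers. Library 1 was the farthest of the 3 in 155 of these, and the highest in 145. Without library 1, 94 identifiers passed, and without library 2, 358. The variance exceeded the mean in 97.2% of identifiers with at least 1000 reads. By list, the median CV was 4.97% in the respiratory chain, 5.67% in fatty acid use and 5.78% in the citric acid cycle, and 14% in the titin, M-band and Z-disc list.

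The most variable genes were mostly high in library 1. Fosb, an immediate early transcription factor, had 9.95, 0.301 and 0.361 CPM, a 33-fold range. CPM is inclusion reads per 1000000 of the library total as scaled by its TMM factor, unlike the level, which uses the plain total. The CPM values of Atf3 (48.8, 4.54 and 4.42), Nr4a1 (82.6, 16.4 and 16.3) and Nr4a3 (44, 8.61 and 6.80), also rapidly induced factors, and Thbs1 (58.3, 10.4 and 8.89), a matrix protein, were likewise highest in library 1. Libraries 2 and 3 were close to each other in all of these. The atrial light chains Myl4 (55.9, 8.56 and 8.94) and Myl7 (28.9, 3.36 and 6.04) were also high in library 1, as were Agt (12.2, 2.62 and 2.76) and Irs2 (29.3, 6.18 and 8.72), the signalling adaptor of the insulin receptor. Gm29015, annotated as antisense, differed, at 11.8, 71.8 and 25.1 with library 2 highest. The atrial markers Sln (levels 5.47, 0.285 and 0.528) and Mybphl (3.78, 0.274 and 0.427) were also highest in library 1. Of the 9 atrial markers with at least 100 reads on average, 6 were highest in library 1, 2 in library 2 and 1 in library 3, and Nppa was among those highest in library 2.

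Agreement in PSI depended on depth. A range of at least 0.1 between the highest and lowest library was found in 16802 parts, 6.21% of all, and in 54.8% of intermediate parts. Intermediate parts are set by the mean of the same 3 values. A part can thus be intermediate because 1 library differs, which raises the shares among them. Among intermediate parts the share was 91.5% with 10 to 19 reads in the shallowest library, 80.8% with 20 to 49, 52.9% from 50 up to 200, 26.8% from 200 up to 1000 and 27.6% with 1000 or more. Outside Ttn the last 2 were 25.1% and 26.7%, so at the highest depths the share was no lower. Between any 2 libraries the median difference in PSI over intermediate parts was 0.0605 to 0.0651, with r across parts of 0.819 to 0.840. Parts that were intermediate in each of the 3 libraries numbered 15475, or 5.72%. Among the chosen genes other than Ttn, 44 of 173 intermediate parts (25.4%) had such a range.

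Among the widest ranges, several genes shared exclusion reads. Xkr8 part 1, Themis2 part 4 and Smpdl3b part 1, neighbours on chromosome 4, each carried the same 454, 245 and 0 exclusion reads, and their PSI was 0.0211, 0.0514 and 1 in Xkr8. The exclusion reads of the 3 genes are equal in number in every library, so they are not separate exon choices. Tgtp1+Gm12185, H1f3, Zfp869, Dynlt1c, Gm14305+Zfp973, H2ac8 and Mir6537+Pou2f2 made up the 10 widest parts, with ranges from 0.902 to 0.963. At part 1 of H1f3 and H2ac8, which encode histones, exclusion reads numbered 6, 26 and 0, and 124, 12 and 0. Over the whole table, 4212 of 32971 identifiers with reads had exclusion reads at every part in at least 1 library, and 1449 intermediate parts lay in them.

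**Figure D5:**
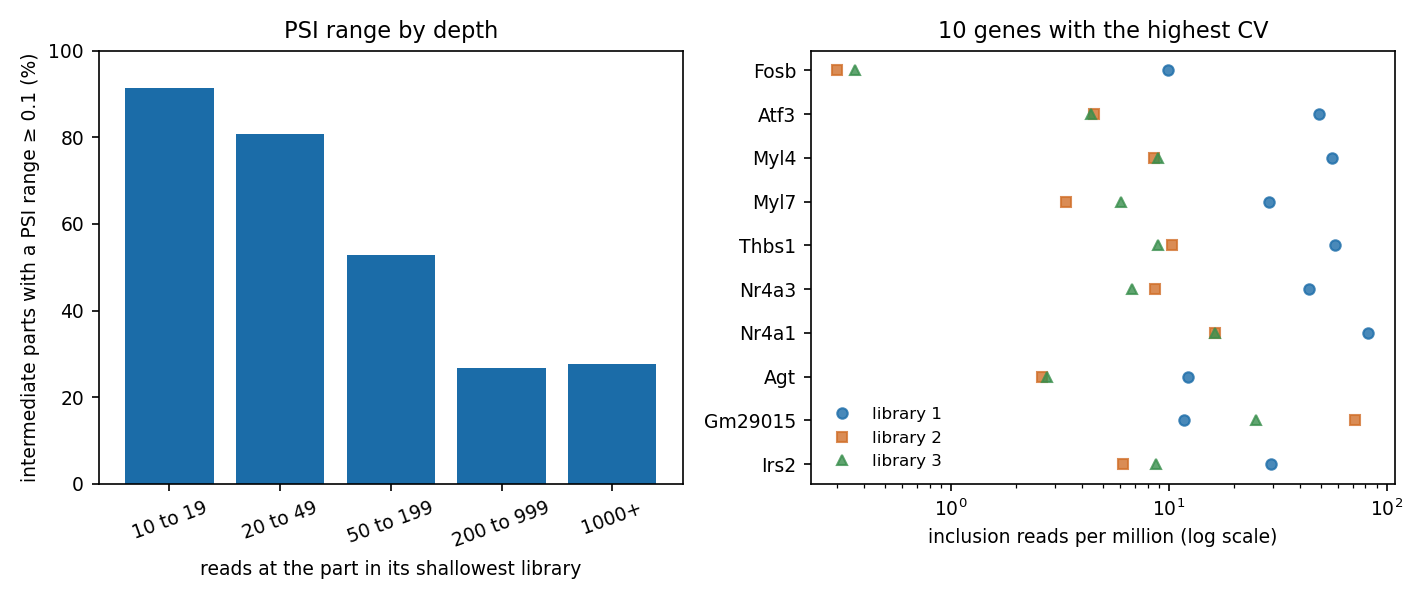
Left, share of intermediate parts with a PSI range of at least 0.1 between the 3 wild-type libraries, by reads in the shallowest library; it goes from 91.5% to 27.6%. Right, CPM (log scale) of the 10 identifiers with the highest CV, in which library 1 is highest in all but Gm29015.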

How the data were processed

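Per the labels' protocols, total RNA of mouse hearts was prepared with a directional library kit and sequenced on a NovaSeq instrument. Per the submitters' processing notes, cutadapt 1.8, Salmon 1.2.1 and the build GRCm39 were used, with no role given. The tool that counted parts, and whether it used the strand, are not given in the sources used here. The authors deposited inclusion and exclusion counts per exonic part, and PSI as a fraction. Every deposited PSI equals inclusion counts over part length plus the read length less 2 bases, set against exclusion counts over the latter alone. The sources do not say how reads that cross part edges were counted. In library 1 the adjoining Slc25a3 parts 8 and 9, of 26 and 18 bases, held 21404 and 19768 inclusion counts. Part 10 of the same gene, of 182 bases, held 35632. A read thus appears to be counted in each part it touches. The part length in bases was the other deposited column used.

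The 3 wild-type libraries were described with no test, since they form a single group. Inclusion counts were summed per identifier, and overlapping genes stayed under a joined identifier. TMM factors and the common dispersion came from edgeR 4.0.16, and DESeq2 1.42.0 gave alternative size factors (R 4.3.3). All other steps ran under Python 3.11.15, with numpy 2.4.6 and pandas 2.3.3 for tables and matplotlib 3.10.9 for plots. Of these steps, only the gene CVs and the PSI classes were tried on simulated data. Named genes were the 20 highest identifiers overall and the 20 highest nuclear ones, 49 genes with known isoform choices by up to 3 parts each, the 5 deepest intermediate parts of each list, the 10 highest CVs at 1000 or more reads and the 10 widest PSI ranges at 50 or more. Members, lists and rule were chosen with earlier results of these data known. Some genes that the rule names are not reported here. Partner exons and single exons outside this rule were picked after their values were seen. Sequences are exons of GENCODE M21 transcripts, matched to parts by gene, length and order, with no coordinate carried between builds. Of 142 named parts 59 had such a match, and 39 of these were wholly coding. A symbol on several identifiers was taken from the one with the most reads. Alternatives covered read minimums, PSI limits, length scaling, normalization and leaving out each library.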

Additional observations from a re-analysis of the deposited data

How the results depend on the processing

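No paired analysis was possible because the results come from no test and a single group is described. The share of parts at intermediate PSI, 8.28%, was 7.88% with 20 reads, 7.20% with 50 reads, 12.7% from 0.05 to 0.95, 4.70% from 0.2 to 0.8, 7.88% without joined identifiers, 19.8% among parts with an exclusion read, 5.16% among parts that touch no other, 5.72% where each library had to be intermediate, and 8.31% to 8.41% leaving out each replicate. Subtracting exclusion reads that every part of a gene shares, an alternative chosen after seeing the data, gave 8.11%. The share with a PSI range of at least 0.1, 6.21%, was 5.22% with 20 reads, 3.69% with 50 reads, 11.8% for a range of 0.05, 2.40% for 0.2, 54.8% among intermediate parts, 5.98% without the shared exclusion reads and 3.84% to 4.08% leaving out each replicate, where 2 libraries give narrower ranges by construction. The median CV of 9.30% was 9.31% with library totals, 9.28% with DESeq2 size factors, 13.9% with no minimum beyond 1 count in each library, 7.61% at 1000 counts and 6.65% to 8.99% leaving out each replicate. The number of identifiers with a CV of at least 0.5, 1.26% of those measured, was 197 with library totals, 206 with DESeq2 size factors and 94 to 358 leaving out each replicate, lowest without replicate 1 and highest without replicate 2. The 224 intermediate Ttn parts became 63 without the exclusion reads shared by a block of 384 Ttn parts. The 268 Ttn parts with a range of at least 0.1 became 66, an alternative again chosen after seeing the data. The shares of 8.11% and 5.98% rest on another subtraction, of reads common to every part of an identifier. They are not corrected for the Ttn block. Of the 20 most abundant identifiers, 15 to 20 stayed among the first 20 under 8 alternatives, and of the 20 nuclear protein-coding ones 17 to 20 did, so most leading genes were shared. Myh6 left the first 20 without replicate 1 and without replicate 3, replaced by mt-Rnr2. Hbb-bt left the nuclear list without replicate 1, replaced by Pln. Length scaling also moved leading genes. Myl2, Myh6 and mt-Tl1 left the first 20 when the read length less 2 bases was added to each part. Mb and Myl2 left it when the median over the parts was used. Tnnt2 entered it with that median, and also when only parts with a mean PSI of at least 0.95 were used. Dnaaf3+Tnni3 left the nuclear protein-coding list with the added bases and with the median. Mb, Myl2 and Myh6 stayed in the nuclear list under all 8 alternatives, but their order there was not compared. With 10 to 19 reads a PSI is coarse, and 21441 of the parts measured were that shallow in a library.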
